A study of Homo sapiens with 4 samples.

Results

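KBM5 cells that received IM and DSF together (IM-DSF) were compared with KBM5 cells that received DSF only, gene by gene. KBM5 is an established human chronic myeloid leukemia line that carries BCR-ABL. The codes are read here as imatinib, an inhibitor of the BCR-ABL kinase, and disulfiram, an inhibitor of aldehyde dehydrogenases. Every gene with a mean of at least 1 FPKM, that is, fragments per kilobase of gene normalized to sequencing depth, over the 4 libraries entered the comparison, which left 11004 of the 50868 genes listed. Just inside that limit was ZSCAN32 with a mean of 1.0005 FPKM, and just outside it was EPM2A with 0.9999.

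The series is 1 mRNA sequencing library for each of 4 groups of KBM5 cells: untreated cells (CTR), cells given DSF, cells given IM and cells given both. The labels state neither doses nor treatment times, and the title names GPX4, which reduces lipid hydroperoxides, and BCR-ABL as the targets. All 4 groups are the same line, with no replicate culture, so every difference below is between single libraries, no p-value is given, and intervals cover counting error only. The libraries had FPKM denominators of 1.24e+07 to 1.58e+07 fragments, 10677 to 11238 genes at 1 FPKM or more, and 30.1% to 32.6% of the summed FPKM in mitochondrial genes.

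BCR-ABL is a constantly active tyrosine kinase that signals through adaptor proteins to STAT5, to the RAS and ERK cascade, and to PI3K and AKT. STAT5 drives survival genes such as PIM1 and feedback inhibitors such as CISH, while AKT keeps FOXO transcription factors out of the nucleus. Inhibition of the kinase is known to slow growth of such cells and can be followed by partial myeloid maturation. Disulfiram inhibits aldehyde dehydrogenases, and its copper complex is known to aggregate NPL4, an adaptor of the p97 segregase.

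The myeloid label was checked on marker genes. SPI1 (52.7 to 70.1 FPKM over the 4 libraries), CD33 (8.07 to 9.22), CD38 (5.92 to 8.43) and MPO (2.49 to 3.49) were detected, as were the granule protease genes ELANE (372 to 619) and AZU1 (111 to 247). The progenitor markers were not: KIT was listed at 0 in all 4 libraries and CD34 reached 0.00554 FPKM at most. The defining markers chosen for other lineages were near 0, with summed levels of at most 0.0639 FPKM over 7 erythroid genes, 0.486 over 4 megakaryocyte genes, 0.485 over 4 B cell genes and 0.302 over 6 epithelial and stromal genes. Of 4 T and NK cell markers, NKG7 alone was above 1 FPKM (10.8 to 13.3). Broader lineage lists held expressed members. They included CA2 (250 to 395 FPKM) and TFRC (28.6 to 42.1) of the erythroid list and PLEK (116 to 150) of the platelet list. NFE2 of the platelet list had 2.12 FPKM in CTR, 0.987 with DSF, 3.12 with IM and 3.50 with both, so its difference rests in part on a low DSF value. PECAM1 of the epithelial and stromal list, which overlaps another gene, had 1.37, 1.41, 1.95 and 4.23 FPKM in the same order.

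Promoters of 5 genes are printed because each belongs to a group described below and carries the motif known for that group's regulators. Within each group the member shown has the largest difference among those whose window holds the motif. The sequences are from RefSeq on GRCh38.p14, read 5′ to 3′ on the gene's strand, with motif matches in capitals. Both strands were searched from 250 bases before to 50 after the start, and the symbols of 7775 of 10999 genes past the filter had such a window. The CISH stretch, chr3:50611775-50612024 on the minus strand, holds 4 matches to the STAT5 motif TTCNNNGAA, which begin 241, 230, 129 and 112 bases before the start.
CISH: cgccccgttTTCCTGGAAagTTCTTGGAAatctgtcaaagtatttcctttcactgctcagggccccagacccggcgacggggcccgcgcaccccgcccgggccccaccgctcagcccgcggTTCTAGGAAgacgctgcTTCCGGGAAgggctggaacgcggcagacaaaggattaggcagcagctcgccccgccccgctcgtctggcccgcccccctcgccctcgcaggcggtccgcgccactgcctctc
RRP9, of the nucleolar group, is shown over chr3:51941892-51941921 on the minus strand around its E-box CACGTG.
RRP9: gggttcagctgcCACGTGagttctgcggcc
CTSD, of the lysosomal group, is shown over chr11:1763928-1764177 on the minus strand, with an E-box that begins 47 bases before the start.
CTSD: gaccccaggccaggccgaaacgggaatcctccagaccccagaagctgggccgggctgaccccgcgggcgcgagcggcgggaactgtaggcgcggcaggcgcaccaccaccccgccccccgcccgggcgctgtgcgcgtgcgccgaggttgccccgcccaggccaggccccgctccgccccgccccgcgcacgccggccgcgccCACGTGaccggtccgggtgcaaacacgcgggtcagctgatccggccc
HSPA8, of the heat shock group, is shown over chr11:123062137-123062386 on the minus strand, with 2 heat shock elements (GAA, TTC and GAA, each 2 bases from the next), one of them on the opposite strand.
HSPA8: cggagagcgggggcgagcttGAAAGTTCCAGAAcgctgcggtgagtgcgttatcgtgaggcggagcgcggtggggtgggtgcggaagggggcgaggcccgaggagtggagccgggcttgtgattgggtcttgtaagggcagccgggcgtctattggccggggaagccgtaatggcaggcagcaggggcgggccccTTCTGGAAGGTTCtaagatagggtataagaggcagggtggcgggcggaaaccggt
BTG1, of the FOXO group, is shown over chr12:92145847-92146096 on the minus strand, with the forkhead motif TGTTTAC.
BTG1: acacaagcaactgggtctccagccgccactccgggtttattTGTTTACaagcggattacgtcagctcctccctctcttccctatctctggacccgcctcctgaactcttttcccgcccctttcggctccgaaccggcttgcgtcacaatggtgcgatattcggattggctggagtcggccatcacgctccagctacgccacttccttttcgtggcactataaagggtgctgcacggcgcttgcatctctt

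The E-box was in the windows of 16 of 38 nucleolar genes (42.1%) and 10 of 35 lysosomal genes (28.6%), beside 11.2% of all genes past the filter and 7.43% of all 27305 windows. In 11 of the 16 nucleolar genes it was found only after the start. The heat shock element was in 5 of 35 heat shock genes (14.3%) and 0.322% of genes past the filter (0.487% of all windows), and the forkhead motif in 4 of 18 FOXO targets (22.2%) and 2.19% (3.41%). The STAT5 motif was in 1 of 12 STAT5 targets, which is CISH, and in 6.20% of genes past the filter (7.88% of all windows). A match describes these letters and is not a binding site.

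Differences are given on the log2(FPKM + 1) scale, IM-DSF minus DSF, and ratios and their 95% intervals on the FPKM scale. The log2 scale understates the change of low genes. A gene is called higher or lower when it differed by at least 1 log2 unit. By that rule 146 genes were higher (1.33% of those tested) and 115 were lower (1.05%), together 2.37%. With trimmed-mean scaling the counts were 101 and 130, so the share of calls that were higher went from 55.9% to 43.7%. The median difference over all genes was 0.01, 51.7% of genes were above 0, and 85.4% lay within 0.5 of 0. The counting interval left out a ratio of 1 for 141 of the 146 and 114 of the 115. The rule picked these genes by size in the same libraries, so that outcome was nearly fixed in advance and is no support.

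Protein-coding genes with no other gene on the same strand over them numbered 6154, and 62 of these were higher and 36 lower. Exons of 18 of the 62 and 17 of the 36 overlap a gene on the opposite strand, beside 2449 of the 6154 (39.8%), which matters if strand was not used in counting. The called share was 1.73% of protein-coding genes, 5.98% of 635 long noncoding genes (30 higher, 8 lower) and 6.20% of 936 pseudogenes (15 higher, 43 lower).

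**Figure D1:**
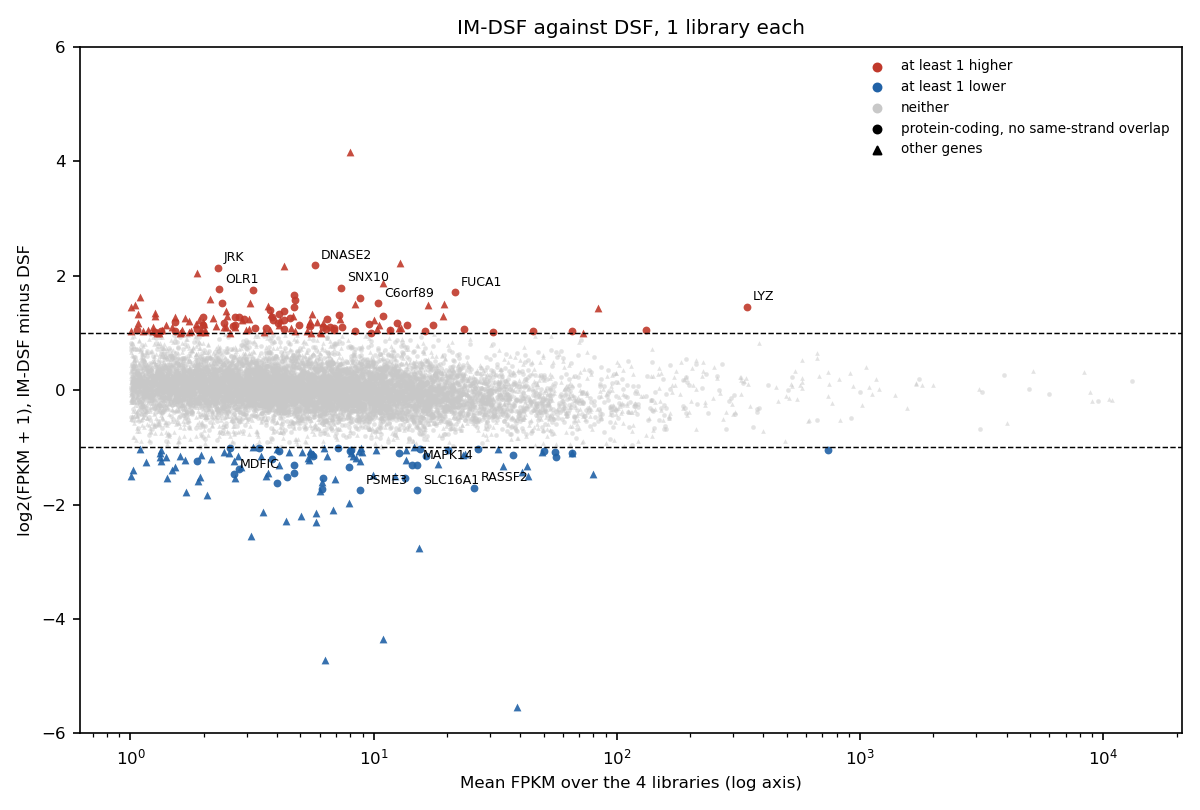
Each point is 1 of the 11004 genes: the mean FPKM over the 4 libraries (log axis) against the difference of log2(FPKM + 1), IM-DSF minus DSF, with dashed lines at the size rule. Most genes lie close to 0, and the largest differences in either direction are triangles, which are genes that overlap another on the same strand or are not protein-coding.

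Among genes of BCR-ABL and its adaptors, 15 of 28 were above 0 and the median difference was 0.01 (-0.07 to 0.04 under other settings), beside 0.01 over all genes. ABL1, the kinase part of the fusion, had 34.0 FPKM in CTR, 34.7 with DSF, 35.1 with IM and 34.0 with both. BCR, its partner, had 4.22, 4.16, 3.99 and 5.93 FPKM in the same order and was 1.42 times DSF in IM-DSF (1.29 to 1.57). Values per gene do not separate the fusion from the normal alleles, and BCR overlaps other genes. GRB2, the adaptor that links the kinase to RAS, was the single called member, with 11.8, 13.6, 16.8 and 34.9 FPKM and a ratio of 2.56 (2.37 to 2.76), and it too overlaps another gene. The myeloid kinase FES had 6.45 FPKM in DSF and 11.5 in IM-DSF, and DOK1, a docking protein that restrains RAS signalling, was lowest with 4.54 and 2.30 FPKM.

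STAT5 targets held 3 of the called lower genes and none of the higher ones, with 13 of 16 below 0 and a median of -0.24 (-0.37 to -0.11 under other settings). Over all genes tested, 1.05% were called lower. PIM1 (chromosome 6, 37170203 to 37175426), a survival kinase, had 16.05 FPKM in CTR, 8.18 with DSF, 4.67 with IM and 2.63 with both. The DSF library was itself below CTR, and IM-DSF was 0.321 times DSF (0.253 to 0.402). CISH (chromosome 3, 50606490 to 50611831), the feedback inhibitor whose promoter is printed above, had 8.18, 4.74, 1.68 and 1.74 FPKM and a ratio of 0.366 (0.292 to 0.453), so that both IM libraries stood at one level. ID1 (chromosome 20, 31605283 to 31606515), which blocks differentiation factors, had 8.02, 5.802, 3.21 and 1.73 FPKM. The cyclins CCND1 and CCND2 differed by -0.31 and -0.32, and MCL1, a BCL2-type survival gene, by 0.15.

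Targets and feedback inhibitors of ERK had a median of -0.31 (-0.46 to -0.19 under other settings), with 14 of 17 below 0 and none called. The lowest were DUSP5, a phosphatase that inactivates ERK, with 1.79 FPKM in CTR, 1.64 with DSF, 0.822 with IM and 0.535 with both, and PHLDA2 with 2.89, 2.56, 1.26 and 1.09. The ETS factors ETV4 and ETV5 differed by -0.66 and -0.70. FOS and JUN went the other way, at 0.44 and 0.38.

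FOXO targets were above 0 in 18 of 21 members, with a median of 0.51. GABARAPL1 (chromosome 12, 10212458 to 10223130), an autophagosome protein, was the called member, with 2.40 FPKM in CTR, 0.952 with DSF, 3.81 with IM and 5.56 with both. Its ratio of 5.84 (4.38 to 7.92) rests in part on a DSF value below CTR. SESN3, a sestrin that restrains mTORC1, had 1.10, 1.59, 3.43 and 3.93 FPKM, and CCNG2, an unconventional cyclin that slows the cycle, had 1.45, 2.42, 6.29 and 5.06. BTG1, an antiproliferative gene that overlaps another gene, had 12.02, 15.6, 27.6 and 28.8 FPKM. For these 3 genes both IM libraries were above both libraries without IM. BCL2L11, the pro-apoptotic BH3 gene BIM, was among the 3 below 0, at -0.39. It had 3.99 FPKM in CTR, 1.64 with DSF, 7.32 with IM and 1.02 with both, so IM without DSF went the other way.

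Of 45 nucleolar genes of ribosome assembly, 44 were below 0, with a median of -0.38, and none was called. RRP9, a protein of the U3 small nucleolar particle, had 49.0 FPKM in CTR, 44.8 with DSF, 25.3 with IM and 25.8 with both, a ratio of 0.576 (0.517 to 0.641). MRTO4, a ribosome assembly factor, had 55.6, 50.1, 35.0 and 29.1. Proteins of the finished ribosome did not follow them: 47 of 78 were above 0 and their median was 0.05 (-0.02 to 0.09 under other settings). RPL29, the called one, had 147, 93.1, 91.0 and 195 FPKM. Ribosomal protein genes have near-identical copies, so single values are uncertain.

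G1/S and replication genes had a median of -0.42, with 45 of 47 below 0. CDC25A, the phosphatase that activates CDK2, had 31.3 FPKM in CTR, 25.6 with DSF, 12.1 with IM and 11.8 with both and was the called lower member, with a ratio of 0.462 (0.420 to 0.508). Of 51 mitotic genes 48 were below 0, with a median of -0.38 and no call. CDC20, an activator of the anaphase-promoting complex, had 66.5, 61.8, 47.6 and 37.4 FPKM. Fewer cycling cells and less mRNA per cell cannot be told apart in these libraries.

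ATF4 targets and amino acid genes were below 0 in 33 of 40 members, with a median of -0.34. Of the 40, 3 were called lower, beside 1.05% of all genes tested. The glutamine transporter SLC1A5 had 77.2 FPKM in CTR, 69.0 with DSF, 49.3 with IM and 30.01 with both, a ratio of 0.435 (0.407 to 0.464). MTHFD2, the mitochondrial folate enzyme, had 35.5, 32.2, 24.6 and 15.3 FPKM, a ratio of 0.474 (0.439 to 0.512). SLC7A5, the leucine transporter that overlaps another gene, had 51.8 FPKM in DSF and 18.5 in IM-DSF. PHGDH, the first enzyme of serine synthesis, had 16.6 and 8.86 FPKM. In SLC1A5 and MTHFD2 the library with both drugs was below IM as well. The list did not fall as a whole. SLC7A11, the cystine importer, was at 0.70, and DDIT3 (CHOP), which overlaps another gene and has few fragments, was at 0.63. TRIB3 and ASNS were at -0.20 and -0.29. Aminoacyl-tRNA synthetases, which charge tRNAs, were below 0 in 16 of 20 members with a median of -0.36.

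Heat shock genes were below 0 in 35 of 39 members, with a median of -0.36 and none called. HSPA8, the constitutive HSC70 chaperone, had 134 FPKM in CTR, 114 with DSF, 79.4 with IM and 61.8 with both, and its ratio was 0.542 (0.521 to 0.564), with an overlapping gene. DNAJB1, an inducible co-chaperone, had 19.5, 17.4, 16.5 and 10.3 FPKM, so that IM-DSF alone stood apart. Proteasome genes were below 0 in 42 of 47 members, with a median of -0.28. PSME3 (chromosome 17, 42824385 to 42843758), the nuclear activator subunit, had 13.9, 13.4, 4.57 and 3.30 FPKM, a ratio of 0.247 (0.212 to 0.286), while the median proteasome gene was lower by far less. Chaperones and degradation genes of the endoplasmic reticulum were split, 18 above and 20 below 0, with a median of -0.08 (-0.16 to 0.01 under other settings). EDEM3 of that list, which trims the sugars of misfolded proteins, was called higher at 1.29. It had 11.5 FPKM in CTR, 4.77 with DSF, 14.2 with IM and 13.1 with both, so the DSF library stood apart.

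**Figure D2:**
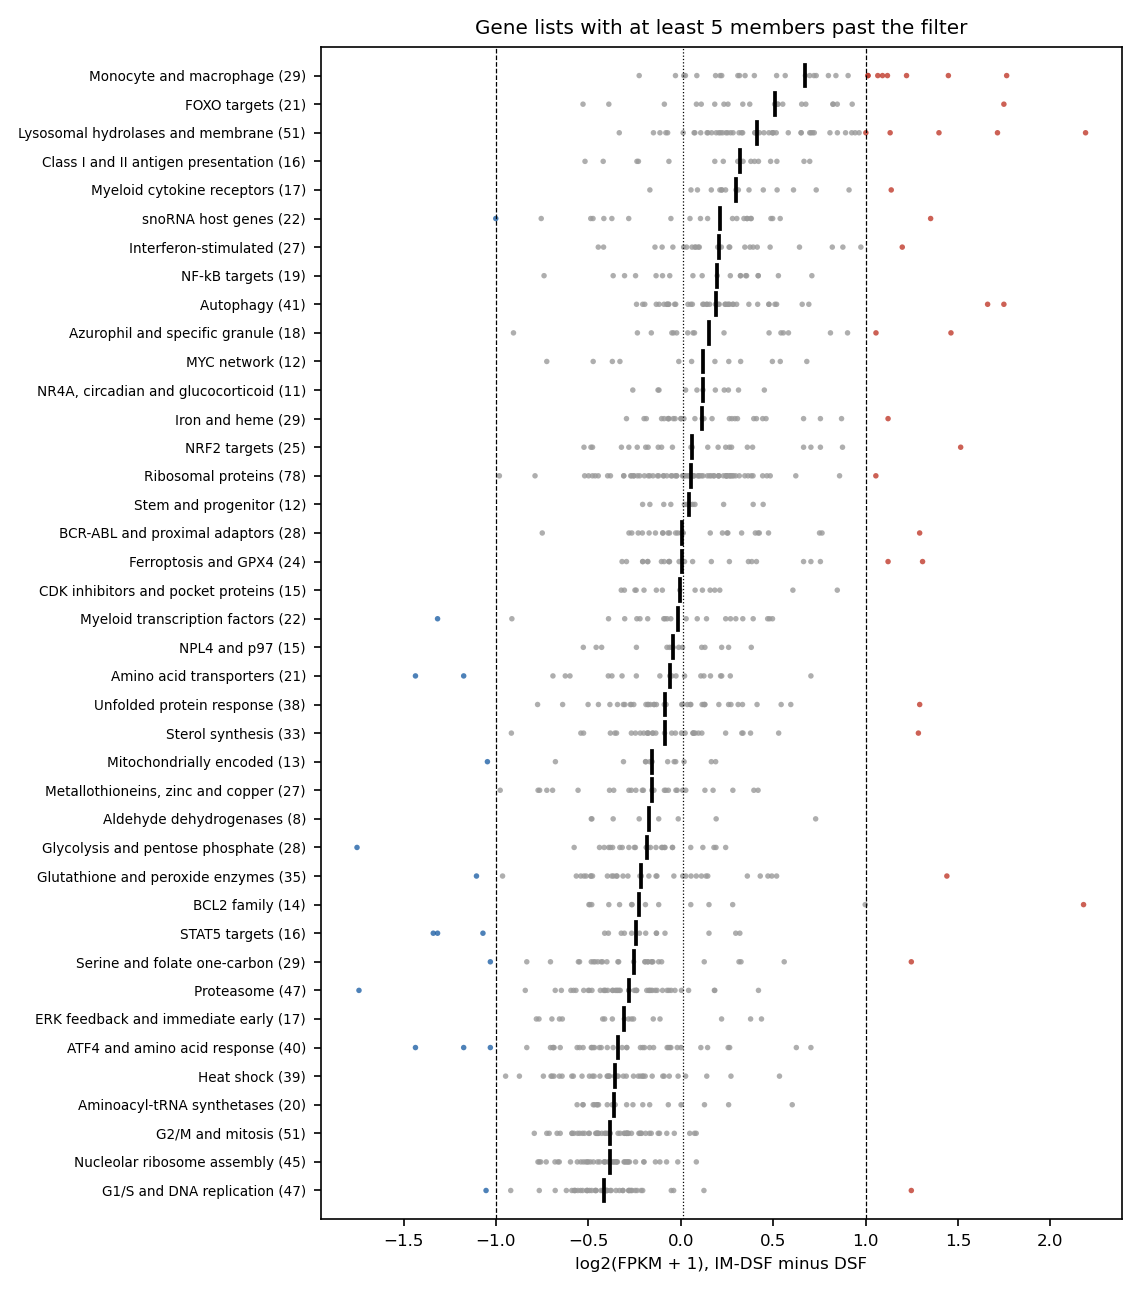
Each row is 1 of 40 gene lists, out of 41 with at least 5 members past the filter (number in brackets), 1 list being left out. Points are genes at their difference of log2(FPKM + 1), IM-DSF minus DSF, colored when past the dashed size rule; black bars are list medians, from -0.42 (G1/S) to 0.67 (monocyte and macrophage), and the dotted line is the median of all genes at 0.01.

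Genes of the monocyte and macrophage had a median of 0.67, which was 0.23 with no filter on low values. Of the 48 listed genes 29 passed the filter, and 27 of these were above 0. CX3CR1 passed only through its level in IM-DSF and is included in these counts and in the median of 0.67. Of the 29, 8 were called higher, beside 1.33% of all genes tested. OLR1 (chromosome 12, 10158301 to 10172138), a scavenger receptor for oxidized lipoprotein, had 0.568 FPKM in CTR, 0.938 with DSF, 2.19 with IM and 5.58 with both. Its ratio was 5.95 (4.27 to 8.52), and IM-DSF was above each of the other 3 libraries. TYROBP, the signalling adaptor of myeloid receptors, had 2.86, 3.55, 6.65 and 8.88 FPKM, a ratio of 2.50 (1.76 to 3.64). S100A9, a calprotectin subunit, had 2.03, 2.48, 2.08 and 6.41 FPKM, with IM-DSF alone apart. AOAH, which deacylates lipopolysaccharide, had 2.49 FPKM in DSF and 7.15 in IM-DSF and overlaps another gene. The monocyte marker CD14 was at or below 0.230 FPKM in all 4 libraries.

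Granule and receptor genes gave a mixed account. LYZ, lysozyme, had 154 FPKM in CTR, 217 with DSF, 399 with IM and 599 with both, and MS4A3, a membrane protein of granulocyte precursors, had 8.54, 8.44, 11.03 and 18.6, a ratio of 2.21 (1.89 to 2.57). The azurophil and specific granule list as a whole had a median of 0.15 (0 to 0.48 under other settings), with 12 of 18 above 0, and CST7, a cystatin, was at 1.68 FPKM in DSF and 0.432 in IM-DSF. Myeloid cytokine receptors were above 0 in 16 of 17 members with a median of 0.30. CSF3R, through which G-CSF acts on granulocyte precursors, was called (22.1 FPKM in IM-DSF and 9.50 in DSF), and CSF1R had 0.434, 1.03, 1.94 and 2.38 FPKM. Transcription factors of the myeloid lineage had a median of -0.01 (-0.09 to 0.03), with 11 above and 11 below 0. IRF8 was at 0.50 and SPI1 at -0.24.

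Lysosomal genes were above 0 in 46 of 51 members, with a median of 0.41. Of the 51, 5 were called higher, beside 1.33% of all genes tested. DNASE2 (chromosome 19, 12875211 to 12881468), the acid nuclease of lysosomes, had the largest difference of any protein-coding gene without an overlap on its strand, 2.19. It had 1.75 FPKM in CTR, 2.09 with DSF, 5.91 with IM and 13.1 with both, a ratio of 6.27 (4.89 to 8.20). FUCA1 (chromosome 1, 23845077 to 23868294), a fucosidase, had 8.89, 12.2, 22.7 and 42.3 FPKM, a ratio of 3.47 (3.08 to 3.92). ASAH1, acid ceramidase, had 10.4, 12.2, 19.6 and 27.9 FPKM, a ratio of 2.29 (2.19 to 2.40). In each of these 3 genes the order was CTR, DSF, IM, IM-DSF from lowest to highest. A gene called higher has IM-DSF above DSF by rule, so part of that order was fixed in advance. Among all 146 higher genes IM-DSF was highest of the 4 libraries in 125, and CTR was lowest in 63. CTSD, cathepsin D, whose E-box is printed above, had 45.3, 36.0, 62.8 and 70.2 FPKM and a ratio of 1.95 (1.83 to 2.07), and overlaps another gene. HYAL2, a hyaluronidase, was lowest of the group at -0.33.

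Autophagy genes, which feed the lysosome, were above 0 in 29 of 41 members with a median of 0.19. Their 2 called members were GABARAPL1 and TP53INP1, a stress protein of autophagosomes with 2.11 FPKM in DSF and 8.84 in IM-DSF. ATG16L2 had 2.37, 4.01, 5.86 and 7.10 FPKM. Interferon-stimulated genes were above 0 in 22 of 27 members with a median of 0.21 (0.10 to 0.28 under other settings), led by UBA7, the activating enzyme for ISG15 (4.04 FPKM in DSF and 10.6 in IM-DSF, overlapping). SAMHD1, a nucleotide triphosphohydrolase, had 45.3, 56.7, 77.0 and 105 FPKM, yet ISG15 was at -0.45. Antigen presentation genes had a median of 0.32 (0.12 to 0.38), with HLA-E at 39.2 FPKM in DSF and 62.8 in IM-DSF. HLA-C, which overlaps another gene, went the other way with 25.7 and 17.6 FPKM, and IFI30, NLRC5 and TAP2 were also below 0.

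Genes of lipid peroxide defence and ferroptosis, the iron-dependent death that GPX4 opposes, were evenly split, with 12 of 24 above 0 and a median of 0.01 (-0.06 to 0.11 under other settings). GPX4 (chromosome 19, 1103926 to 1106791) had 19.6 FPKM in CTR, 20.1 with DSF, 19.7 with IM and 17.6 with both, a ratio of 0.877 (0.775 to 0.995). The upper end of that counting interval lies just under 1. SAT1, the polyamine acetyltransferase, had 4.23, 4.58, 7.27 and 12.8 FPKM, a ratio of 2.80 (2.33 to 3.37), and SLC40A1, the iron exporter ferroportin, had 1.35, 1.58, 3.02 and 4.62, a ratio of 2.92 (2.30 to 3.71). These were the 2 called members, and both were highest in IM-DSF and next highest in IM. IM-DSF was the highest library in 125 of all 146 higher genes.

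FTH1, SLC7A11 and HMOX1 are set together here after their values were seen. FTH1, the ferritin heavy chain, had 66.6 FPKM in CTR, 43.4 with DSF, 45.7 with IM and 69.3 with both. SLC7A11, the cystine importer, had 11.3, 8.38, 7.73 and 14.3, and HMOX1, heme oxygenase, had 2.04, 0.857, 1.21 and 2.14. For all 3 the single-drug libraries were the lower pair, and none of the 3 was called. GPX1, the cytosolic glutathione peroxidase, had 50.1, 54.8, 80.0 and 151 FPKM, a ratio of 2.74 (2.56 to 2.94), and was called higher. GENCODE 29 classes GPX1 as a polymorphic pseudogene, so it is not counted among the protein-coding genes. On the lower side stood GLO1, the glyoxalase, with 93.3, 92.2, 34.3 and 42.3 FPKM, and PRDX1, a peroxiredoxin, with 169, 139, 80.8 and 71.0. Glutathione and peroxide enzymes together had a median of -0.21 (-0.33 to -0.02), with 22 of 35 below 0, and NRF2 targets a median of 0.06 (-0.01 to 0.17).

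Of 8 aldehyde dehydrogenases past the filter 6 were below 0, with a median of -0.17 (-0.37 to -0.01 under other settings). ALDH4A1, a proline-pathway enzyme that overlaps another gene, was highest at 0.73, and ALDH1B1 and ALDH1L2 were both at -0.48. The NPL4 and p97 list had a median of -0.04, with NPLOC4 itself at -0.01. Metallothionein, zinc and copper genes were below 0 in 20 of 27 members with a median of -0.16 (-0.27 to -0.07). MT1E, a metallothionein, had 16.3 FPKM in CTR, 10.9 with DSF, 9.83 with IM and 5.98 with both.

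MDM2, a ubiquitin ligase that overlaps another gene, had 1.77 FPKM in CTR, 1.26 with DSF, 1.23 with IM and 3.63 with both, a ratio of 2.88 (2.48 to 3.35). Its highest value was in IM-DSF and its lowest values were in the single-drug libraries. Genes of the BCL2 family, which set the threshold of apoptosis, were below 0 in 9 of 14 members, with a median of -0.23 (-0.29 to -0.12 under other settings). BMF, a pro-apoptotic BH3 gene, had 3.07, 3.70, 6.82 and 8.40 FPKM and lay just under the size rule, and PMAIP1 (NOXA) was at -0.50.

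IM against CTR gives the same drug step without DSF and shares no library with IM-DSF against DSF. That comparison called 169 genes higher (1.54%) and 98 lower (0.891%), together 2.43%. Of the 146 genes higher here, 34 were also higher there and 113 had the same sign, and of the 115 lower, 19 were also lower and 74 had the same sign. In the opposite direction stood 4 and 12 genes. The share of same sign among all 11004 genes is not given here, so these counts do not set the called genes apart. Across the 6154 protein-coding genes without overlap, the pair of differences correlated at Pearson r = 0.55 and Spearman rho = 0.59. Genes are not independent replicates, and all 4 libraries come from one line.

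The 98 called protein-coding genes without overlap were grouped by where CTR, DSF and IM stood. For 33 of the 62 higher genes and 21 of the 36 lower ones, IM differed from CTR in the same direction by at least 0.5. LYZ, DNASE2 and FUCA1 are in the first set, and PIM1, PSME3 and CDC25A in the second. The share of all 6154 such genes that differed in this way is not given here. In 15 higher and 8 lower genes DSF and IM were each within 0.5 of CTR, and IM-DSF alone stood apart. APOBR (chromosome 16, 28494649 to 28498970), a macrophage receptor for apolipoprotein B, had 2.73 FPKM in CTR, 2.73 with DSF, 3.44 with IM and 10.1 with both, a ratio of 3.70 (3.08 to 4.47), and shares exon bases with CLN3 on the opposite strand (2.10 to 3.21 FPKM). SC5D, a late enzyme of cholesterol synthesis, had 1.79, 1.73, 1.996 and 5.67 FPKM, a ratio of 3.27 (2.69 to 3.98).

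The lower genes of that kind included some of the largest differences. SLC16A1 (chromosome 1, 112911847 to 112957013), the lactate and pyruvate transporter MCT1, had 21.8 FPKM in CTR, 18.5 with DSF, 15.2 with IM and 4.80 with both, a ratio of 0.259 (0.229 to 0.293). RASSF2 (chromosome 20, 4780023 to 4823645), a RAS-association domain protein, had 32.6, 30.6, 31.9 and 8.69 FPKM, a ratio of 0.284 (0.260 to 0.310). HJURP (chromosome 2, 233833416 to 233854566), the chaperone that loads the centromeric histone CENP-A, had 8.05, 7.58, 7.12 and 1.95, a ratio of 0.258 (0.204 to 0.324). In RASSF2 and HJURP the other 3 libraries differ by little beside the gap to IM-DSF. MRPL34, a mitochondrial ribosomal protein, had 8.38, 7.30, 7.40 and 1.49 FPKM, a ratio of 0.204 (0.134 to 0.297).

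In 8 higher genes and 1 lower gene it was the DSF library that stood apart, while CTR, IM and IM-DSF lay within 0.5 of CTR. ZNF24, a zinc finger repressor, had 10.2 FPKM in CTR, 2.98 with DSF, 10.8 with IM and 11.2 with both, and TAF8, a TFIID subunit, had 4.28, 1.52, 5.70 and 5.55. JRK (chromosome 8, 142657460 to 142681968), a DNA-binding protein, had 2.78, 0.182, 1.97 and 4.22 FPKM, and its ratio of 23.2 (16.1 to 34.6) rests on that low DSF value. MDFIC, an inhibitor of MyoD family factors, was the lower one, with 1.65, 5.76, 1.75 and 1.46. The differences of these 9 genes describe the DSF library as much as the IM-DSF library.

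**Figure D3:**
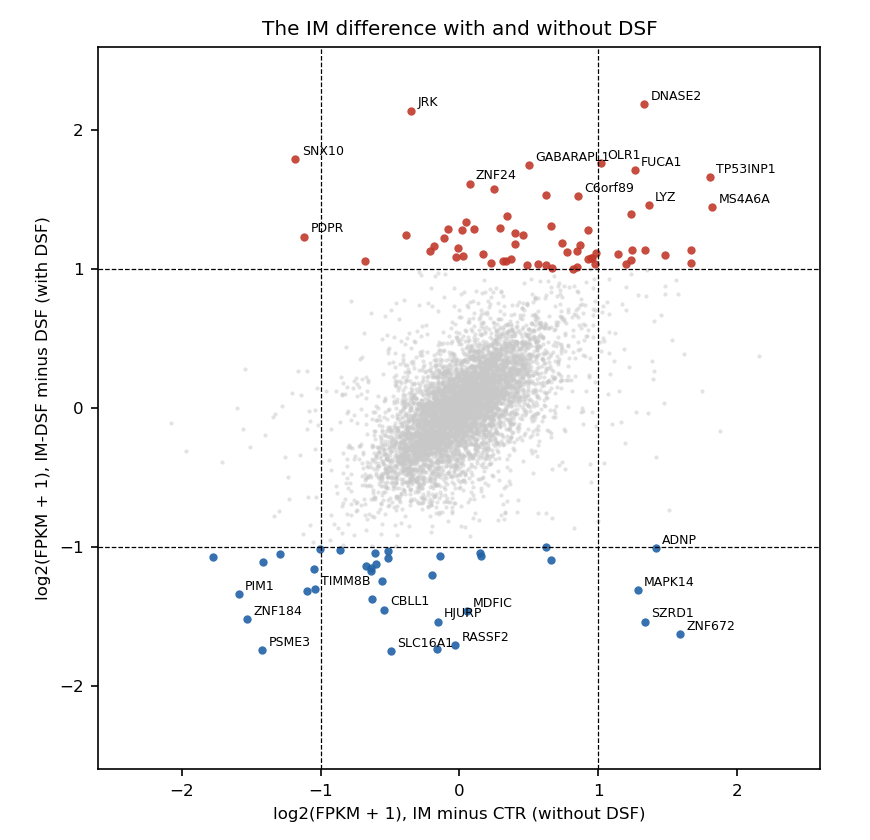
Each point is 1 of the 6154 protein-coding genes without same-strand overlap, with the difference of log2(FPKM + 1) IM minus CTR on the horizontal axis and IM-DSF minus DSF on the vertical axis; dashed lines mark the size rule, and red and blue mark genes called higher and lower in IM-DSF. Called genes such as TP53INP1 and PIM1 lie along the diagonal, RASSF2 and JRK lie near 0 on the horizontal axis, and SNX10, PDPR, ZNF672, SZRD1, MAPK14 and ADNP lie in the opposite corners.

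For 3 higher and 6 lower genes IM differed from CTR by at least 0.5 in the opposite direction. MAPK14 (chromosome 6, 36027677 to 36111236), the stress kinase p38 alpha, had 8.65 FPKM in CTR, 21.1 with DSF, 22.5 with IM and 7.89 with both, a ratio of 0.374 (0.343 to 0.409). SZRD1 had 7.21, 20.3, 19.7 and 6.35 FPKM, and ADNP, a chromatin-associated homeobox protein, had 3.25, 10.2, 10.3 and 4.58. SNX10 (chromosome 7, 26291895 to 26374329), a sorting nexin of endosomes, ran the other way with 9.64, 3.04, 3.70 and 13.0, a ratio of 4.28 (3.58 to 5.14). In all 4 genes DSF and IM lay close to each other and CTR lay nearer to IM-DSF.

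**Figure D4:**
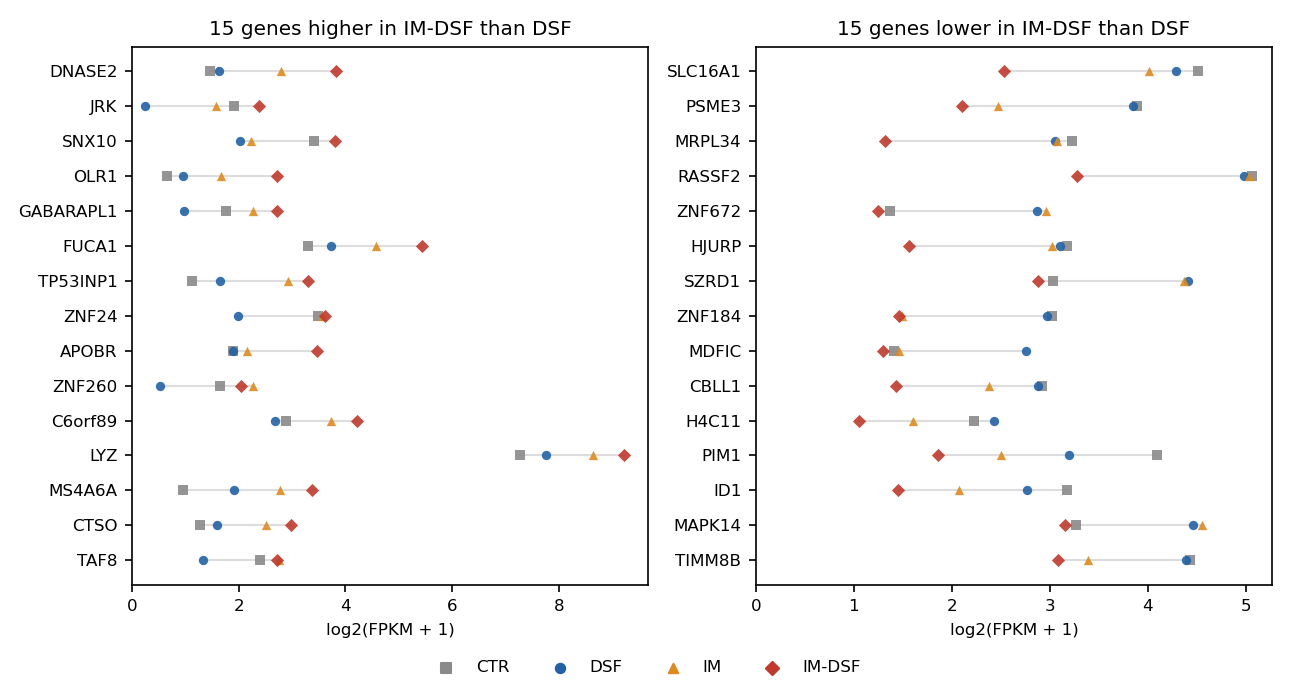
Values of log2(FPKM + 1) in the 4 libraries for the 15 protein-coding genes without same-strand overlap with the largest positive (left) and largest negative (right) differences, IM-DSF minus DSF; each point is 1 library. IM lies between DSF and IM-DSF for DNASE2, FUCA1 and PIM1, only IM-DSF is apart for RASSF2 and HJURP, and CTR lies beside IM-DSF for MAPK14 and SZRD1.

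The largest differences of all were in genes that share exons with a neighbour, and these are uncertain. BIVM-ERCC5, a read-through gene, had 19.4 FPKM in DSF and 24.2 in IM and was listed at 0 in CTR and IM-DSF. Its neighbour ERCC5, a DNA repair nuclease, ran opposite with 12.1 FPKM in CTR, 6.02 with DSF, 6.61 with IM and 15.5 with both. SENP3-EIF4A1 had 29.6, 20.6, 9.24 and 2.17 FPKM, while the constituent gene EIF4A1, a translation helicase, had 10.95, 11.7, 13.7 and 14.9. The other constituent, SENP3, did not rise, with 11.6, 9.91, 7.30 and 7.75. BCL2L2, a BCL2-type survival gene, had 5.76, 0.396, 5.69 and 5.32, and the read-through BCL2L2-PABPN1 over it had 4.85, 5.47, 3.98 and 2.64. Among noncoding genes OIP5-AS1 was highest with 12.9, 3.05, 17.3 and 17.9 FPKM, and GABPB1-AS1 was lowest with 0.360, 2.01, 3.57 and 0.183. How the counting divided reads among such genes was not tested.

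Genes encoded by the mitochondrial genome had a median of -0.16 (-0.23 to -0.05 under other settings), with 10 of 13 below 0. MT-ND6, the subunit encoded on the light strand, was the called member, with 1015 FPKM in CTR, 853 with DSF, 666 with IM and 413 with both, a ratio of 0.484 (0.462 to 0.506). MT-CO2, on the heavy strand, had 9161, 10207, 9682 and 8943 FPKM and differed by -0.19. Over all genes the median difference was 0.10 at 1 to 2 FPKM and -0.16 at 20 to 100 FPKM, and the part of abundance in the list medians above was not tested.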

How the data were processed

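The authors deposited 1 table of FPKM values per gene, with 1 value column for each of the 4 libraries, per the file headers. A stranded mRNA kit was used, per the labels' protocols. The aligner HISAT2 2.0.4 and the build GRCh38.p14 come from the submitters' processing notes. What counter, annotation and strand setting were used is not given in the sources used here. Coordinates were taken from the table itself. Identifiers were matched to GENCODE 29, which held 50111 of them, 47538 with the same start and end, and gave biotypes, exon lengths and overlaps.

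Differences used log2(FPKM + 1). Denominators were recovered from single-exon genes, where FPKM times length was a whole multiple of 1 step, within 0.05, for 96.1% to 96.6% of genes. Fragment numbers from these denominators are approximate for genes with several exons, so no count test was run. They gave exact conditional 95% intervals of ratios, which PCR copies make too narrow. The size rule and intervals were tested on simulated data.

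The 47 gene lists, the comparison and the rules were chosen with earlier results of these data known. Named genes are GPX4, BCR and ABL1, the 15 largest differences per direction among protein-coding genes without same-strand overlap, up to 5 uncertain and 3 noncoding genes per direction, up to 4 members per list, genes past the size rule in opposite directions with and without DSF, and the genes nearest the filter. Some results of this rule are not reported here. Other names, such as S100A9, HYAL2, MCL1, CCND1, FOS, JUN, ISG15, NPLOC4, CTSD, BCL2L11, CD14 and the other marker genes, were chosen with their values in view or as markers. Counts and medians were recomputed under 7 other settings: TPM scaling, median-of-ratios factors, trimmed-mean factors, a pseudocount of 0.1, a filter at 5 FPKM, all genes unfiltered, and protein-coding genes without same-strand overlap. Python 3.11.15, numpy 2.4.6, pandas 2.3.3, scipy 1.17.1 and matplotlib 3.10.9 were used.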

Additional observations from a re-analysis of the deposited data

Results flagged for a closer look

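In 6 protein-coding genes without same-strand overlap, IM-DSF minus DSF and IM minus CTR both passed 1 log2 unit but in opposite directions, and that difference was not tested because each group is 1 library. SNX10 was 1.79 higher with IM when DSF was present and -1.18 without it. PDPR, a regulatory subunit of pyruvate dehydrogenase phosphatase, was at 1.23 and -1.12. On the lower side with DSF were ZNF672 (-1.63, and 1.59 without DSF), SZRD1 (-1.54 and 1.34), MAPK14 (-1.31 and 1.28) and ADNP (-1.01 and 1.42). PDPR had 5.19 FPKM in CTR, 2.11 with DSF, 1.85 with IM and 6.31 with both, and ZNF672 had 1.59, 6.32, 6.78 and 1.37, so both again paired CTR with IM-DSF. Genes with opposite-strand exon overlap among the 6 are SNX10, PDPR, SZRD1 and ADNP, where the opposite genes reached at most 0.44 FPKM in any library.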

How the results depend on the processing

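No paired analysis was possible because each group is 1 library. The counts of 146 higher and 115 lower genes went to 317 and 223 with a pseudocount of 0.1, to 290 and 176 after rescaling to TPM, to 54 and 68 with a mean of at least 5 FPKM, and to 62 and 36 among protein-coding genes without same-strand overlap. They were 180 and 147 with no filter, 119 and 130 with median-of-ratios factors, and 101 and 130 with trimmed-mean factors. All 73 called named genes kept their sign under every alternative that tested them. They were called for a size of at least 1 log2 unit in these values, so a kept sign was nearly fixed in advance. Of the 73, 69 (trimmed-mean) or 72 (median-of-ratios) stayed past 1 log2 unit under those scalings. RPL29, MS4A3, RTCA-AS1 and MDM2 lay at 0.97 to 0.98 with trimmed-mean factors. List medians kept their side of 0 in the monocyte (0.23 to 0.74), FOXO (0.35 to 0.58), lysosomal (0.32 to 0.49), nucleolar (-0.46 to -0.37), G1/S (-0.48 to -0.41), G2/M (-0.45 to -0.35), ATF4 (-0.45 to -0.29), heat shock (-0.43 to -0.31), STAT5 (-0.37 to -0.11) and ERK (-0.46 to -0.19) lists under all 7 alternatives. The granule list went from 0.15 to 0 with no filter, which adds genes at or near 0 FPKM, and to 0.48 with a mean of at least 5 FPKM. With no filter the monocyte median was below the FOXO and lysosomal medians. Medians near 0 (ribosomal proteins, NRF2 targets, ferroptosis, BCR-ABL adaptors) changed sign with the setting. Depth limits single low genes such as H4C11, whose ratio of 0.246 has an interval of 0.0734 to 0.658.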

Other observations

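Further gene families, taken by symbol after their values were seen, are given as values only. Mitochondrial ribosomal protein genes (MRPL and MRPS) were below 0 in 67 of 78 members, with a median difference IM-DSF minus DSF of -0.28. Genes of mitochondrial protein import (TIMM and TOMM) were below 0 in 22 of 24 members with a median of -0.33, and TIMM8B and TOMM40 were called lower. TIMM8B had 20.5 FPKM in CTR, 19.9 with DSF, 9.47 with IM and 7.48 with both, and shares exon bases with SDHD on the opposite strand (18.5 to 21.9 FPKM). TOMM40, the pore of the outer membrane, had 19.3, 23.7, 12.1 and 10.1. Complex I subunit genes (NDUF) were below 0 in 26 of 37, with a median of -0.21. Sorting nexins and V-type ATPase subunits, which serve endosomes and lysosomes, both had a median of 0.16. ZNF zinc finger genes had a median of 0.13, with 84 of 268 below 0.

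Further secreted and surface genes of myeloid cells, also chosen after their values were seen, were called higher. CFD, the complement protease factor D, had 25.9 FPKM in CTR, 48.9 with DSF, 84.7 with IM and 102 with both. CHI3L1, a chitinase-like secreted protein, had 12.7, 17.8, 25.4 and 38.6, and RETN, resistin, had 19.3, 24.2, 31.1 and 49.7. TREM2, a lipid receptor that signals through TYROBP, had 5.45, 6.07, 8.56 and 13.5 FPKM. In these 4 genes the libraries kept the order CTR, DSF, IM, IM-DSF. They were picked among genes called higher, which fixes IM-DSF above DSF in advance.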
